A study of Picea abies with 36 samples.

Results

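The 150 genes described here are those with the largest increase between day 5 and day 15 in mock-treated hypocotyls of Norway spruce (Picea abies), out of 70736 genes in the count table. They were chosen by 1 ratio, log2((mean day 15 CPM + 1)/(mean day 5 CPM + 1)) over the mock libraries, where CPM is a gene's count scaled to a common library total. A gene had to reach a ratio of 0.7, and each of the 3 mock day 15 libraries had to lie above all 3 mock day 5 libraries. Separation alone held for 10.3% of the genes that reached 1 CPM in a group, both conditions were met by 1156 genes, and the 150 with the highest ratio were kept. The list depends on single libraries: without 1 mock library of day 5 or day 15 at a time, 81 to 123 of the 150 were chosen again, with 81 without mock day 5 replicate 2 and 86 without mock day 15 replicate 1. RNA was sequenced from the middle region of the hypocotyl of wild-type seedlings of 1 seed source, FP-518 TreO G7 Söregärde, which had been given a lanolin paste. The paste held BAP and IAA together, BAP (6-benzylaminopurine, a synthetic cytokinin, labelled 135 mM), IAA (indole-3-acetic acid, an auxin, 50 mM) or neither hormone (mock), and hypocotyls were collected on days 5, 10 and 15. There were 12 groups, with 3 libraries per group and several plants pooled in each. The BAP dose is given in other units elsewhere in the study and is therefore uncertain, and plants without any paste were not among the libraries.

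The hypocotyl is the stem below the cotyledons. In conifers it stops elongating early, and its cambium then lays down secondary xylem inwards and phloem outwards while cell walls thicken and lignify. Auxin is known to promote cambial activity and xylem formation, and cytokinin is known to promote cambial cell division. Laccases oxidise monolignols in the wall, casparian strip membrane domain proteins (CASPs) mark out wall domains, and phenolic glycosides, flavonoids and pathogenesis-related proteins are common in maturing stems. Whether the tissue matured was not itself measured here, and marker genes taken from the study gave a mixed picture in mock. PaPRX66-like (MA_10431507g0020), a peroxidase marker of lignifying xylem, had 0.175, 0.239 and 0.142 CPM on mock day 15, against 1.50, 0.804 and 0.750 CPM on mock day 5. PaAPL-like (MA_201937g0010), a phloem marker, had 3.45, 3.47 and 3.54 CPM on mock day 15, against 3.63, 3.29 and 1.98 CPM on mock day 5. PaCDKB2;2-like (MA_920994g0010), a marker of dividing cells, had 56.5, 55.2 and 53.6 CPM on mock day 15, against 78.9, 65.6 and 50.6 CPM on mock day 5. The xylem marker was thus lower on day 15 with no overlap, but its day 15 level rests on few reads per library. A sum of 3 counts over the mock day 15 group would be 0.0626 CPM. The levels of the other markers overlapped, and the members are therefore called here only genes that were higher on mock day 15. Fewer cells of a type and less RNA per cell cannot be told apart in such bulk libraries.

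Total counts ranged from 13188942 to 23110495 per library, and all 150 members passed the filter on low counts that left 38732 tested genes. Replicates of a group differed by more than sampling noise in every pair (chi-square per degree of freedom of at least 6.92), and none was counted as a duplicate. The libraries numbered 1 stood apart for these genes. In mock day 5, replicate 1 was the lowest of the 3 libraries for 127 of the 150 members, with a median deviation of -0.44 from the group mean on the log2(CPM + 1) scale. In mock day 10 it was the lowest for 111 members (median deviation -0.47) and in mock day 15 for 101 members (-0.29). The median deviation of replicate 1 was smaller under hormone, between -0.22 in BAP day 15 and 0 in BAP+IAA day 10. The main counts that changed without the mock libraries numbered 1 are given both ways below.

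**Figure D1:**
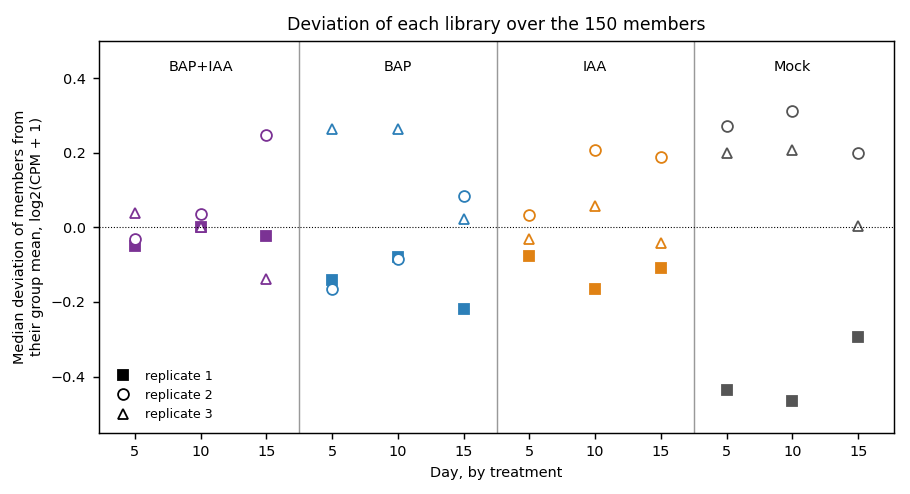
Median deviation of the 150 members from their group mean in each of the 36 libraries, on the log2(CPM + 1) scale (y axis), by treatment and day (x axis); filled squares are replicate 1, open circles replicate 2 and open triangles replicate 3. Replicate 1 lay lowest in all 3 mock groups, at -0.44, -0.47 and -0.29 on days 5, 10 and 15.

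The rise in mock is the choice of the members and is described without a test. The ratio ranged from 1.49 to 4.14 with a median of 1.74, which on the CPM + 1 scale is 2.81-fold to 17.6-fold with a median of 3.33-fold. Most members were not abundant: the mock day 15 mean was below 10 CPM for 64 members, from 10 to below 100 CPM for 72 and at least 100 CPM for 14, and the mock day 5 mean was under 1 CPM for 43. The median member had a group mean of 2.39, 7.08 and 11.7 CPM on mock days 5, 10 and 15. The day 10 mean lay between the 2 other days for 142 members, at or above day 15 for 7 and at or below day 5 for 1. Without the mock libraries numbered 1 these counts were 132, 16 and 2. By day 10 the median member had covered 63.6% of its log2 increase, with an interquartile range of 53.7% to 75.8%. All 3 mock day 10 libraries lay above all mock day 5 libraries for 74 members (7.58% of the genes reaching 1 CPM in a group) and below all mock day 15 libraries for 67 (5.78%). Since the members were chosen for low day 5 and high day 15 levels in these libraries, nothing is read from those shares. At the edge of the list, MA_20704g0010, MA_10435833g0010 and MA_10436636g0020 had ratios of 1.50, 1.50 and 1.49 and closed the list. The next genes, MA_97947g0010, MA_371748g0010 and MA_10436636g0010, had ratios of 1.48, 1.47 and 1.47 and were left outside.

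**Figure D2:**
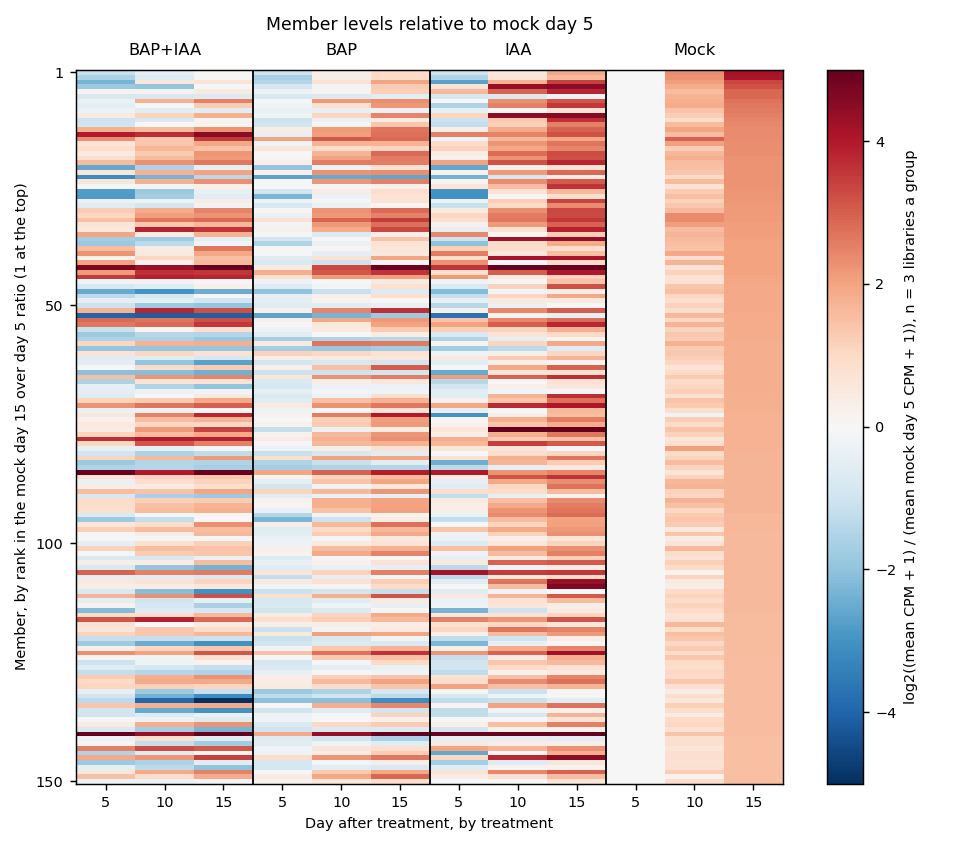
Mean level of the 150 members (rows, rank 1 at the top) in the 12 groups (columns, days 5, 10 and 15 of BAP+IAA, BAP, IAA and mock), as the log2 ratio of mean CPM + 1 to that of mock day 5; values beyond 5 or -5 take the end colours, and each mean is of 3 libraries. The mock columns darken from day 5 to day 15 by construction, the IAA columns darken for most rows, and blue rows are most frequent under BAP+IAA and BAP.

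The 10 genes with the highest ratio carried few descriptions. MA_462223g0010 and MA_424421g0010, neither with a description, led the list with ratios of 4.14 and 4.08. MA_462223g0010 had 28.8, 40.4 and 43.4 CPM on mock day 15, against 0, 1.68 and 1.88 CPM on mock day 5. MA_424421g0010 had 40.8, 52.5 and 60.5 CPM on mock day 15, against 0, 2.85 and 3.43 CPM on mock day 5. In both genes mock day 5 replicate 1 held no count, and the other mock day 5 libraries stood near each other. The next were MA_103352g0010 (ratio 3.33), MA_10434249g0010 (3.20) and MA_2026g0010 (2.88), a gene described as a myb transcription factor. MA_103143g0010 (2.87), MA_10426917g0010 (2.73), MA_19627g0010 (2.64) and MA_10432701g0010 (2.59) had no description, and MA_97119g0020 (2.51) was described as laccase 12. MA_10426917g0010 depended on the library: it had 5.32, 34.8 and 20.5 CPM on mock day 15, against 0.5, 4.24 and 1.88 CPM on mock day 5, and replicate 1 was the lowest on both days.

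How the members moved over time under each hormone was tested between groups that the rule did not use. The spread behind these and all later tests was estimated in 1 fit over all 36 libraries. That fit holds the mock libraries of days 5 and 15, so the p-values are not fully free of the choice. With IAA, 115 of the 150 members rose between day 5 and day 15 and 3 fell, where 12.8% of all tested genes rose and 4.91% fell. With BAP, 87 rose and 0 fell, where 8.09% of all tested genes rose and 2.42% fell. With BAP+IAA, 39 rose and 16 fell, where 5.37% of all tested genes rose and 3.1% fell. The median log2 fold change of day 15 over day 5 was 2.88 with IAA, 2.21 with BAP and 0.90 with BAP+IAA, against 0.04, -0.01 and 0.01 over all tested genes. With empty groups set to a floor of 3 counts in sum, these member medians were 2.86, 2.20 and 0.90. Calls are edgeR quasi-likelihood F-tests (two-sided) in which the P adjusted by Benjamini-Hochberg over all tested genes was under 0.05 and the log2 fold change exceeded 1 in size. The 3 members lower with IAA became 1, 1, 5 and 0 without IAA day 5 replicate 1, IAA day 15 replicate 1, IAA day 15 replicate 2 and IAA day 15 replicate 3, and the 0 lower with BAP became 1 without BAP day 5 replicate 2 or BAP day 15 replicate 1. DESeq2 called 1 member lower with BAP, and 111 members had an unadjusted P below 0.05 in edgeR for that comparison, in either direction.

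**Figure D3:**
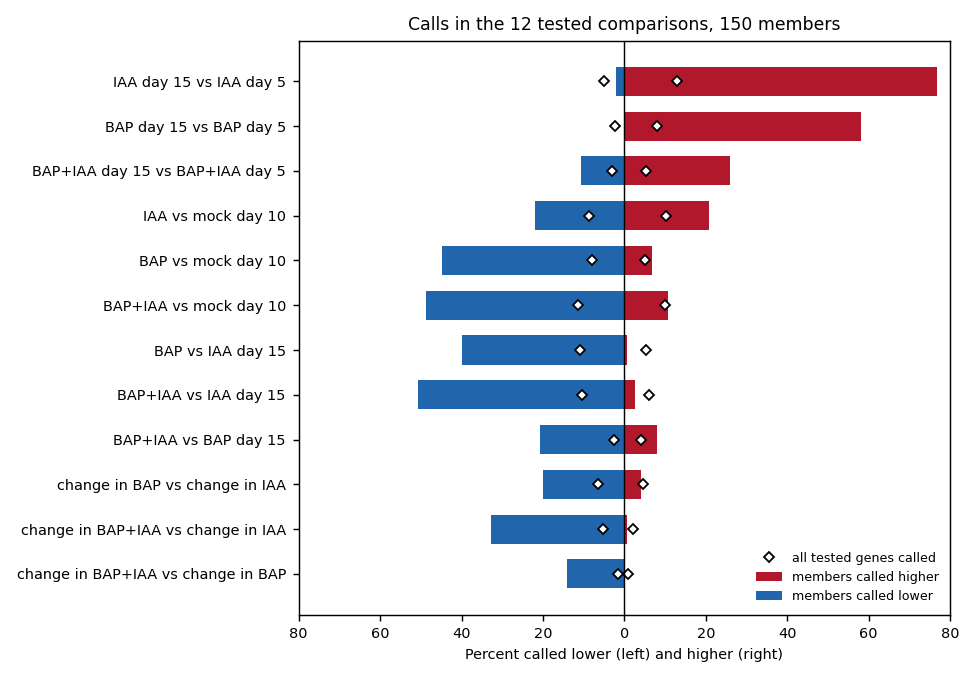
Percent of the 150 members called lower (blue bars, left) and higher (red bars, right) in the 12 tested comparisons, with the percent of all 38732 tested genes called (open diamonds); in each label the group named first is on top of the fold change. The IAA time course has the longest red bar, with 115 members, and BAP+IAA against IAA on day 15 the longest blue bar, with 76.

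These 3 time courses share no library. A rise in at least 1 was called for 126 members, where 19.1% of all tested genes showed one, a rise with IAA and with BAP for 76 (3.16% of all tested genes) and a rise in all 3 for 35 (1.23%). A rise with IAA and no call with BAP or BAP+IAA was found for 28 members (7.49%), and a rise with BAP and no call in the other 2 for 9 (3.37%). There were 8 members that rose with IAA and fell with BAP+IAA (0.33%), and 14 were called in none of the 3 (73.7%). Among the 35 were MA_462223g0010, MA_424421g0010, MA_103352g0010, MA_10434249g0010, MA_19627g0010 and both members described as laccases. MA_19627g0010 had 176, 194 and 180.1 CPM on IAA day 15, against 4.18, 4.54 and 4.53 CPM on IAA day 5 (log2 fold change 5.36 ± 0.48 (SE), adjusted P = 2.9e-09). With BAP+IAA the same gene had 56.6, 33.8 and 19.9 CPM on day 15, against 14.4, 12.8 and 4.74 CPM on day 5 (log2 fold change 1.77 ± 0.41 (SE), adjusted P = 0.003). Its libraries did not overlap between the days in either treatment. With BAP+IAA the rise of MA_424421g0010 (adjusted P = 0.018) did not pass without BAP+IAA day 5 replicate 2 or 3, BAP+IAA day 15 replicate 2 (log2 fold change 5.79 to 8.14 and adjusted P up to 0.071 over 6 fits that each left out 1 library).

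**Figure D4:**
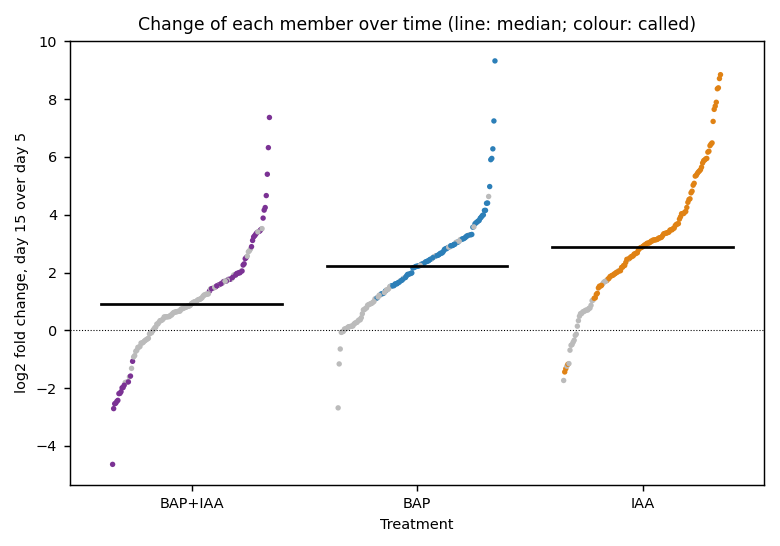
log2 fold change of day 15 over day 5 (y axis) of each of the 150 members under BAP+IAA, BAP and IAA (x axis), sorted by value within a treatment; coloured points were called, grey points were not, and the black line is the median. The medians are 0.90, 2.21 and 2.88, and only BAP+IAA has a tail of coloured points below -2.

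The largest rises came from genes that were close to absent on day 5. MA_5584804g0010, without a description, had 11.2, 10.9 and 14.7 CPM on IAA day 15, against 0, 0.0433 and 0 CPM on IAA day 5. These are 624 and 1 counts over the groups, a 635-fold ratio with an exact conditional 95% interval of 114 to 25122 that covers counting error only. MA_424421g0010 had 5.73, 3.63 and 6.22 CPM on BAP day 15 and no count in any BAP day 5 library, and was at least 78.6-fold higher on day 15 when the empty group is set to 3 counts in sum. MA_462223g0010 had 1.08, 2.52 and 0.272 CPM on BAP+IAA day 15 and no count in any BAP+IAA day 5 library, and was at least 22.3-fold higher on day 15 against the same floor (adjusted P = 0.026). That last call did not pass without BAP+IAA day 5 replicate 1, 2 or 3, BAP+IAA day 15 replicate 2 (log2 fold change 6.49 to 7.83 and adjusted P up to 0.12 over 6 fits that each left out 1 library). Both MA_424421g0010 and MA_462223g0010 stayed below their mock level on day 15 with IAA. They reached 8.95, 14.6 and 2.13 CPM and 6.46, 13.9 and 1.03 CPM, and the mock day 15 values given above were all higher. Those mock libraries chose both genes for a high level, so nothing is read from this.

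Falls were fewer. MA_68461g0010, without a description, had the largest called fall of the BAP+IAA time course, with 0.78, 1.23 and 1.57 CPM on day 15, against 27.7, 33.1 and 26.1 CPM on day 5 (log2 fold change -4.64 ± 0.80 (SE), adjusted P = 1.6e-04). Mock libraries of this gene held 201, 203 and 240.1 CPM on day 15, above every BAP+IAA library. The gene was chosen for a high level in those mock libraries, so nothing is read from that order. The largest called fall with IAA was that of MA_10211613g0010, described as an uncharacterized acetyltransferase At3g50280-like protein, with 4.47, 14.2 and 4.13 CPM on day 15, against 22.4, 23.6 and 15.9 CPM on day 5 (log2 fold change -1.44 ± 0.48 (SE), adjusted P = 0.019). Its day 10 libraries were lower than both other days with IAA, at 2.44, 3.62 and 3.7 CPM. This fall did not pass without IAA day 5 replicate 2, IAA day 15 replicate 1 or 3 (log2 fold change -2.29 to -1.15 and adjusted P up to 0.099 over 6 fits that each left out 1 library).

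Against mock of the same day, only day 10 could be tested, since the rule used the mock libraries of days 5 and 15. All 3 comparisons share the mock day 10 libraries. The members were chosen for high mock day 15 levels, and the median member had covered 63.6% of its log2 increase by mock day 10. Lower calls are therefore not free of the choice. With BAP+IAA, 16 members were higher and 73 lower, where 10.0% and 11.5% of all tested genes were called higher and lower. With BAP, 10 were higher and 67 lower (4.99% and 7.89% of all tested genes). With IAA, 31 were higher and 33 lower (10.1% and 8.63% of all tested genes). The member medians were -1.32, -0.94 and 0.03 with BAP+IAA, BAP and IAA, and those over all tested genes lay between 0.00 and 0.01. Without mock day 10 replicate 1, in which the members were low, the counts higher and lower were 15 and 70 with BAP+IAA, 5 and 66 with BAP, and 21 and 32 with IAA. The count of 10 members higher with BAP also fell to 6 without BAP day 10 replicate 3, and the count of 33 members lower with IAA fell to 21 without mock day 10 replicate 2. On this day the xylem marker PaPRX66-like was higher under all 3 hormone treatments, at 7.996 to 13.7 CPM with BAP+IAA, 0.92 to 3.64 CPM with BAP and 3.60 to 12.1 CPM with IAA, against 0.213 to 0.296 CPM in mock. That mock level also rests on few reads per library. The marker of dividing cells PaCDKB2;2-like was also higher, with no overlap of libraries, at 85.9 to 106 CPM with BAP+IAA, 102 to 110.0 CPM with BAP and 76.9 to 88.7 CPM with IAA, against 50.7 to 63.3 CPM in mock. Its log2 fold changes of 0.75, 0.76 and 0.57 (edgeR adjusted P = 2.2e-06, 5.0e-06 and 1.3e-04) were below the fold required for a call. The phloem marker PaAPL-like had log2 fold changes of -0.27, -0.45 and -0.55 (adjusted P = 0.42, 0.21 and 0.10). The part of these cell types in the members' differences was not tested.

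The extremes on day 10 lay in genes without a description. MA_103143g0010 was highest in mock, with 4.95, 4.34 and 5.22 CPM in mock. In no hormone library of any day did it exceed 13 counts, so little is read from its lower calls. With BAP+IAA it had no count in any library, at least 78.2-fold lower against the floor. With IAA it held 3 counts over the group, 85.5-fold lower than mock with a 95% counting interval of 28.9 to 417-fold (adjusted P = 6.9e-06). MA_82991g0010 had 0.148, 0 and 0 CPM with BAP, against 6.43, 8.21 and 10.3 CPM in mock. Its 2 counts over the BAP group put it 196-fold lower, with a 95% counting interval of 54.0 to 1628-fold (adjusted P = 1.7e-08). In the other direction, MA_595151g0010 had 404, 239 and 339.6 CPM with IAA, against 0.222, 2.0 and 0.373 CPM in mock (log2 fold change 8.63 ± 1.15 (SE), adjusted P = 1.3e-06). With BAP the same gene had 1.78, 2.65 and 26.3 CPM (log2 fold change 3.50 ± 1.12 (SE), adjusted P = 0.02), which did not pass without BAP day 10 replicate 3, Mock day 10 replicate 1 or 3 (log2 fold change 1.30 to 4.94 and adjusted P up to 0.5 over 6 fits that each left out 1 library). Its BAP day 10 replicate 3 stood far above the other BAP libraries, whereas its IAA libraries all lay above all mock libraries. MA_6045987g0010 had the largest called increase with BAP+IAA, at 7.4, 4.5 and 3.56 CPM, against 0.443, 0.2 and 0 CPM in mock (log2 fold change 4.67 ± 1.00 (SE), adjusted P = 4.0e-04).

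On day 15 the hormone groups were compared with each other, with no mock group in the comparison. Mock libraries entered only the estimate of the spread. BAP+IAA had 4 members higher and 76 lower than IAA, where 5.94% of all tested genes were higher and 10.5% lower. These counts are from the fit without a replicate block, and those of the blocked fit are given with the processing. BAP had 1 member higher and 60 lower than IAA (5.33% and 10.9% of all tested genes). BAP+IAA had 12 members higher and 31 lower than BAP (4.06% and 2.62% of all tested genes). The member medians were -1.56, -1.06 and -0.48 in these comparisons, against medians between 0.00 and 0.01 over all tested genes. The 1 member higher with BAP than with IAA became 2 without IAA day 15 replicate 2, IAA day 15 replicate 3 or BAP day 15 replicate 1. In the last comparison the 12 higher members became 5 and 4 without the BAP day 15 libraries numbered 1 and 2 and became 7 without the BAP+IAA day 15 library numbered 2. The 31 lower members became 19 without BAP+IAA day 15 replicate 3.

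Single genes went both with and against these directions. MA_80085g0010, without a description, was the 1 member higher with BAP than with IAA, at 176, 159 and 259.7 CPM with BAP, against 39.4, 36.8 and 32.7 CPM with IAA (log2 fold change 2.34 ± 0.51 (SE), adjusted P = 9.6e-04). In MA_9901458g0010 the order was the reverse, with 0.837, 0.844 and 7.18 CPM with BAP, against 262, 227 and 168 CPM with IAA (log2 fold change -6.32 ± 0.97 (SE), adjusted P = 1.3e-05). BAP+IAA lay between them at 59.8, 21.1 and 10.8 CPM, higher than BAP (log2 fold change 3.42 ± 0.89 (SE), adjusted P = 0.01). That difference did not pass without BAP day 15 replicate 1 or 2, BAP+IAA day 15 replicate 1 (log2 fold change 2.48 to 5.22 and adjusted P up to 0.081 over 6 fits that each left out 1 library). The largest called decrease of BAP+IAA against BAP was that of MA_486980g0010, with 0.06, 0.136 and 0.136 CPM with BAP+IAA, against 1.35, 1.1 and 0.705 CPM with BAP (log2 fold change -3.12 ± 0.78 (SE), adjusted P = 0.0061). MA_82991g0010 had no count with BAP+IAA, against 0.773, 1.07 and 2.64 CPM with IAA, and was at least 22.1-fold lower against the floor.

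Whether the change over time differed between treatments was tested as the difference of the day 15 over day 5 changes. The change with BAP+IAA was smaller than that with IAA for 49 members and larger for 1, where 5.2% and 2.2% of all tested genes were called in these directions. The change with BAP was smaller than that with IAA for 30 members and larger for 6 (6.52% and 4.6% of all tested genes). The change with BAP+IAA was smaller than that with BAP for 21 members and larger for 0 (1.6% and 0.793% of all tested genes). There, 48 members had an unadjusted P below 0.05 in either direction, and DESeq2 called 1 larger. Without BAP+IAA day 5 replicate 3 the count of 21 was 13. In the same tests the change of the phloem marker PaAPL-like was larger with BAP+IAA than with IAA by 1.25 on the log2 scale (adjusted P = 0.023) and larger with BAP than with IAA by 1.20 (adjusted P = 0.022). PaCDKB2;2-like had log2 fold changes of day 15 over day 5 of -0.60 with BAP+IAA, -0.52 with BAP and -0.67 with IAA (adjusted P = 2.0e-04, 0.0011 and 2.0e-05), below the fold required for a call, and PaPRX66-like had 0.59, 0.58 and 0.65 (adjusted P = 0.44, 0.48 and 0.34). Their part in the members' changes was not tested. MA_10434427g0010, described as HOTHEAD-like, a family of oxidoreductases known for a role in cuticle formation in Arabidopsis, had the largest such difference. It had 19.3, 17.6 and 42 CPM on IAA day 15, against 0.139, 0.173 and 0 CPM on IAA day 5 (log2 fold change 7.76 ± 0.92 (SE), adjusted P = 2.9e-07). With BAP+IAA it had 1.14, 0.204 and 0.613 CPM on day 15, against 0, 0.301 and 0.84 CPM on day 5, and the difference of the changes was -7.09 ± 1.37 on the log2 scale (adjusted P = 9.1e-04). It did not pass without BAP+IAA day 5 replicate 3 (log2 fold change -7.78 to -5.74 and adjusted P up to 0.071 over 12 fits that each left out 1 library). On mock day 15 the gene had 1.23, 4.07 and 1.84 CPM, so that its IAA level lay above that of the condition in which it was chosen.

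Members of the cell wall and lignin group were described in 4 cases, and both laccases responded alike. Laccases are copper oxidases that couple monolignols into lignin. MA_97119g0020 (laccase 12) had 236, 184 and 204 CPM on IAA day 15, against 13.5, 25.2 and 14.3 CPM on IAA day 5 (log2 fold change 3.54 ± 0.44 (SE), adjusted P = 4.8e-07). MA_97119g0010 (laccase) had 60.9, 42.9 and 60.9 CPM on IAA day 15, against 3.9, 7.66 and 3.99 CPM on IAA day 5 (log2 fold change 3.37 ± 0.42 (SE), adjusted P = 4.5e-07). All day 15 libraries lay above all day 5 libraries in both genes. On day 10 MA_97119g0020 had 170.3, 212 and 189 CPM with IAA, against 15, 30.6 and 13.2 CPM in mock (log2 fold change 3.34 ± 0.44 (SE), adjusted P = 9.1e-07). MA_97119g0010 had 53.7, 59.4 and 56.3 CPM with IAA, against 3.7, 7.14 and 4.05 CPM in mock (log2 fold change 3.56 ± 0.43 (SE), adjusted P = 2.1e-07). On day 15 BAP+IAA was lower than IAA in both, with log2 fold changes of -2.87 ± 0.42 (SE) for MA_97119g0020 and -2.76 ± 0.41 (SE) for MA_97119g0010 (adjusted P = 7.4e-06 and 6.2e-06). The 2 genes are numbered next to each other on 1 genome scaffold, and how reads with several alignments were treated is not given in the sources used here, so that their values may not be independent.

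MA_10436687g0010 (cellulose synthase E6), from a family of wall polysaccharide synthases, had a ratio of 2.32 and was called in 1 comparison only. It had 3.03, 1.04 and 1.15 CPM on BAP day 15, against 11.7, 4.22 and 2.64 CPM on IAA day 15 (log2 fold change -1.93 ± 0.69 (SE), adjusted P = 0.034), which did not pass without IAA day 15 replicate 1, BAP day 15 replicate 2 or 3 (log2 fold change -2.60 to -1.11 and adjusted P up to 0.29 over 6 fits that each left out 1 library). MA_10432355g0010 (probable xyloglucan glycosyltransferase 6) had a ratio of 1.55 and was called in none of the 12 comparisons. MA_14830g0010 (CASP 1E2), a member of the casparian strip membrane protein family, had 328, 317 and 408 CPM on IAA day 15, against 35.1, 35.7 and 48.8 CPM on IAA day 5 (log2 fold change 3.12 ± 0.30 (SE), adjusted P = 7.6e-09). With BAP+IAA it had 64.3, 49.9 and 42.8 CPM on day 15, against 36.5, 20.7 and 31.3 CPM on day 5, a change that was not called, and the difference between the changes was -2.33 ± 0.40 on the log2 scale (adjusted P = 2.4e-04). Its IAA libraries of day 15 lay above every mock day 15 library (191, 162 and 131 CPM), and its BAP+IAA libraries lay below all of them. The gene was chosen for a high level in those mock libraries, so the lower BAP+IAA level is not free of the choice.

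**Figure D5:**
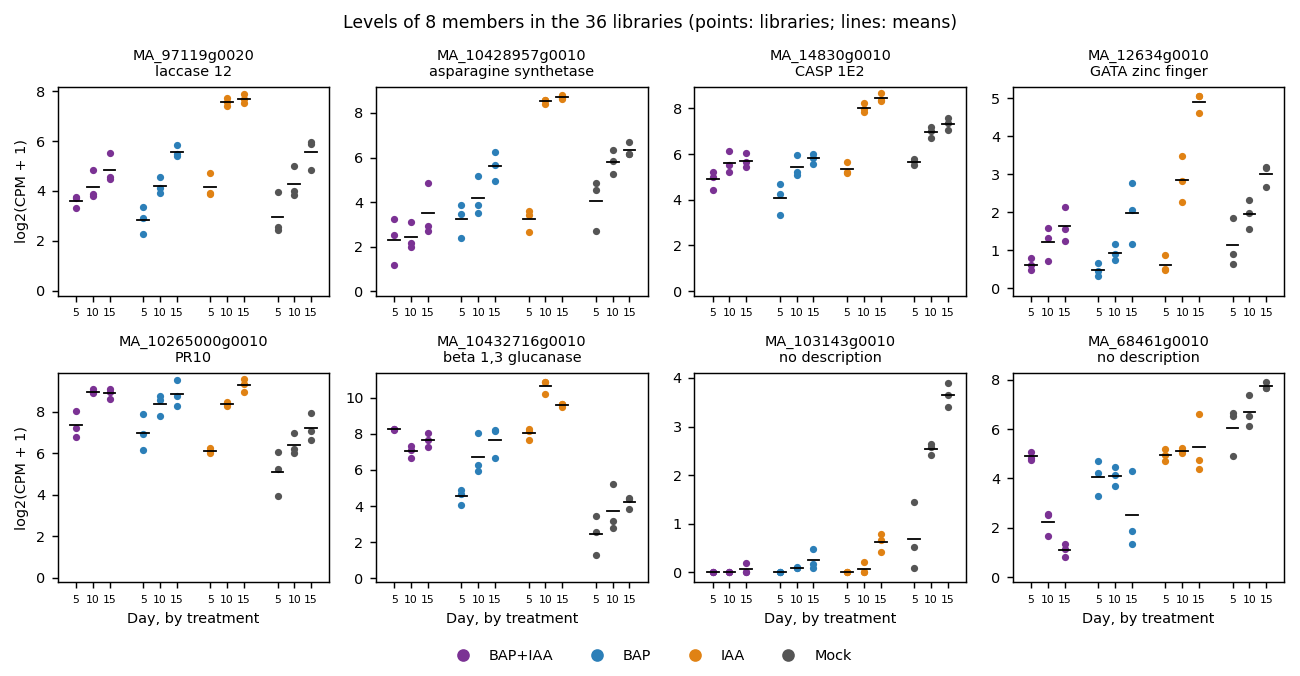
Level of 8 members in the 36 libraries, as log2(CPM + 1) (y axis), by treatment and day (x axis, days 5, 10 and 15 of BAP+IAA, BAP, IAA and mock); points are libraries and lines are means of 3. Laccase 12, asparagine synthetase, CASP 1E2 and the GATA zinc finger gene peak with IAA, PR10 and beta 1,3 glucanase lie above mock under every hormone treatment, and MA_103143g0010 and MA_68461g0010 peak in mock.

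Glycoside hydrolases, which cleave wall glucans or glycosides, were described in 3 cases, and all were higher with IAA than in mock on day 10. The same was called for 31 of the 150 members and 10.1% of all tested genes. Descriptions came from genes that the study listed by hormone or graft response. Nothing about this enzyme type is therefore read from the count. MA_10432716g0010 (beta 1,3 glucanase) had 137, 159 and 102 CPM with BAP+IAA, 60.2, 75 and 263 CPM with BAP and 1839, 1178 and 1881 CPM with IAA on day 10, against 8.13, 35.8 and 6.02 CPM in mock. All hormone libraries lay above all mock libraries, with log2 fold changes of 2.92 ± 0.60 with BAP and 6.68 ± 0.70 with IAA (SE, adjusted P = 4.8e-04 and 2.8e-08), and an adjusted P of 1.9e-04 with BAP+IAA. Its change over time with BAP+IAA differed from that with BAP by -3.84 ± 0.80 on the log2 scale (adjusted P = 0.0068). MA_119005g0010 (glycoside hydrolase family 1) had 34.9, 26.7 and 33.4 CPM with BAP+IAA on day 10, against 1.4, 3.74 and 2.98 CPM in mock (log2 fold change 3.53 ± 0.45 (SE), adjusted P = 3.6e-07). MA_10437038g0010 (beta-D-glucan exohydrolase family) had 42.2, 19 and 35.9 CPM with IAA on day 10, against 6.43, 6.21 and 7.72 CPM in mock (log2 fold change 2.30 ± 0.66 (SE), adjusted P = 0.0071). MA_119005g0010 was not called with BAP, and MA_10437038g0010 was not called with BAP+IAA, in this comparison.

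Genes of phenolic and other specialised metabolism went in several directions. MA_10434729g0020 (scopoletin glucosyltransferase), an enzyme type that attaches glucose to a coumarin, had its highest group mean with BAP+IAA on each of the 3 days. It had 24.6, 61.1 and 72.8 CPM with BAP+IAA on day 15, against 5.91, 7.26 and 4.38 CPM with IAA (log2 fold change 3.12 ± 0.74 (SE), adjusted P = 0.0019). On mock day 15 it had 1.29, 2.87 and 5.17 CPM. Its change over time differed between BAP and IAA by 3.91 ± 1.04 on the log2 scale (adjusted P = 0.0092). With BAP it rose, with 8.5, 18.2 and 27.3 CPM on day 15, against 0.152, 3.03 and 8.45 CPM on day 5 (log2 fold change 2.17 ± 0.75 (SE), adjusted P = 0.04), a rise that did not pass without BAP day 5 replicate 1 or 2, BAP day 15 replicate 2 or 3 (log2 fold change 1.64 to 3.42 and adjusted P up to 0.16 over 6 fits that each left out 1 library). With IAA the change was not called, with 5.91, 7.26 and 4.38 CPM on day 15, against 29.1, 12.9 and 16.3 CPM on day 5. MA_10433570g0010 (dihydroflavonol 4-reductase), an enzyme of the anthocyanin and tannin route, had 2.76, 3.83 and 3.68 CPM on IAA day 15, against 0.209, 0.649 and 0.473 CPM on IAA day 5 (log2 fold change 2.87 ± 0.63 (SE), adjusted P = 5.9e-04). On day 10 it had 0.222, 0 and 0.115 CPM with BAP+IAA, against 1.92, 2.54 and 1.97 CPM in mock (log2 fold change -4.25 ± 0.80 (SE), adjusted P = 7.0e-05). MA_10435833g0010, also described as a dihydroflavonol 4-reductase, behaved otherwise: it had 3.09, 4.54 and 24 CPM on BAP day 15, against 0, 1.9 and 1.37 CPM on BAP day 5 (log2 fold change 3.22 ± 0.74 (SE), adjusted P = 0.0029), which did not pass without BAP day 15 replicate 3 (log2 fold change 1.75 to 3.84 and adjusted P up to 0.088 over 6 fits that each left out 1 library).

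O-methyltransferases add methyl groups to small molecules, and the 3 described here were called lower than mock on day 10 under at least 1 treatment and higher under none. As all members were chosen for a high mock level, nothing about this enzyme type is read from that. MA_10029964g0010 (catechol O-methyltransferase) had 0, 0.0577 and 0 CPM with BAP+IAA, against 1.33, 3.94 and 1.28 CPM in mock, which is 1 count against 101 over the groups (adjusted P = 4.8e-04). MA_10430754g0010 ((R,S)-reticuline 7-O-methyltransferase-like) had 0.37, 0.115 and 0.0575 CPM with BAP+IAA, against 0.591, 1.27 and 5.17 CPM in mock (log2 fold change -3.75 ± 0.87 (SE), adjusted P = 8.8e-04). This gene held 0 to 10 counts in every hormone library, against 43, 85 and 63 counts on mock day 15, so little is read from its lower call. MA_10434351g0010 (indole-3-acetate O-methyltransferase 1), a type of enzyme that methylates auxin itself, had 0.296, 0.0575 and 0.397 CPM with BAP, against 1.33, 2.74 and 2.77 CPM in mock (log2 fold change -3.29 ± 1.19 (SE), adjusted P = 0.038). It did not pass without BAP day 10 replicate 1, 2 or 3, Mock day 10 replicate 2 or 3 (log2 fold change -3.82 to -2.77 and adjusted P up to 0.14 over 6 fits that each left out 1 library). It was not called in the IAA time course or against mock on IAA day 10. MA_10433403g0010 (cytochrome P450 CYP736A12-like) was 1 of the 35 members that rose in all 3 time courses, with log2 fold changes of 2.05 ± 0.39 with BAP+IAA, 2.67 ± 0.45 with BAP and 2.54 ± 0.40 with IAA (SE; adjusted P = 3.7e-04, 1.5e-04 and 9.8e-06).

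The 2 described transcription factors and the 1 from the study's list all rose with IAA and with BAP. Both rises were called for 76 of the 150 members and 3.16% of all tested genes. Nothing about transcription factors is therefore read from this. MA_2026g0010 (myb) had 16.6, 18.9 and 17.1 CPM on IAA day 15, against 2.37, 4.46 and 2.43 CPM on IAA day 5 (log2 fold change 2.48 ± 0.41 (SE), adjusted P = 2.1e-05). On day 15 it had 1.2, 0.886 and 0.34 CPM with BAP+IAA, below every IAA library (log2 fold change -4.47 ± 0.48 (SE), adjusted P = 2.6e-08). MA_12634g0010 (GATA zinc finger) had 23.3, 32.5 and 32.3 CPM on IAA day 15, against 0.418, 0.822 and 0.405 CPM on IAA day 5 (log2 fold change 5.65 ± 0.56 (SE), adjusted P = 9.3e-09). Its change with BAP+IAA differed from that with IAA by -3.65 ± 0.86 on the log2 scale (adjusted P = 0.0046). MA_137415g0010 belongs to a list of transcription factors of graft healing. It had 71.1, 80.1 and 85.4 CPM on IAA day 15, against 4.87, 10.3 and 6.96 CPM on IAA day 5 (log2 fold change 3.39 ± 0.40 (SE), adjusted P = 2.4e-07). On day 10 it was lower than mock with BAP+IAA and with BAP, by log2 fold changes of -2.76 ± 0.40 and -2.68 ± 0.40 (SE; adjusted P = 2.6e-06 and 9.0e-06), and was not called with IAA.

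The members described as asparagine synthetase, transporters and GEM 8 also rose with IAA. Such a rise was called for 115 of the 150 members and 12.8% of all tested genes. Nothing about the functions of these genes is therefore read from it. MA_10428957g0010 (asparagine synthetase), which makes the nitrogen carrier asparagine, had 440.4, 394 and 411 CPM on IAA day 15, against 5.29, 11 and 9.73 CPM on IAA day 5 (log2 fold change 5.56 ± 0.69 (SE), adjusted P = 5.5e-07). On day 10 it had 7.7, 3.52 and 2.99 CPM with BAP+IAA and 377, 337 and 383 CPM with IAA, against 37.8, 79.8 and 56.3 CPM in mock. It was thus lower with BAP+IAA (log2 fold change -3.64 ± 0.67 (SE), adjusted P = 7.4e-05) and higher with IAA (log2 fold change 2.71 ± 0.60 (SE), adjusted P = 7.0e-04), and no library of these 3 groups overlapped with another group. MA_10430268g0010 (sugar transporter ERD6-like 16) had 14.3, 13.3 and 9.73 CPM with IAA on day 10, against 3.55, 2.4 and 2.93 CPM in mock (log2 fold change 2.13 ± 0.49 (SE), adjusted P = 0.001). MA_111099g0010 (ABC transporter B family member 15-like), from a family of membrane pumps, had 55.3, 81.4 and 70.9 CPM on IAA day 15, against 1.25, 2.86 and 3.11 CPM on IAA day 5 (log2 fold change 4.81 ± 0.43 (SE), adjusted P = 2.4e-09). Its IAA level on day 5 lay below every mock day 5 library (14.3, 15.4 and 27.6 CPM). MA_20704g0010 (GEM 8), from a family linked to cell division control in Arabidopsis, rose in all 3 time courses, with log2 fold changes of 1.92 ± 0.51 with BAP+IAA, 1.97 ± 0.52 with BAP and 2.35 ± 0.52 with IAA (SE; adjusted P = 0.0085, 0.0084 and 7.6e-04).

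Defence-related and redox genes differed in their response to hormone. MA_10265000g0010 (PR10), a pathogenesis-related protein, had 539, 476 and 484 CPM with BAP+IAA, 217, 431 and 382 CPM with BAP and 303, 346 and 327 CPM with IAA on day 10, against 63.9, 72.6 and 125 CPM in mock. The log2 fold changes were 2.51 ± 0.47, 1.89 ± 0.46 and 1.95 ± 0.46 (SE; adjusted P = 8.8e-05, 0.0026 and 0.0013), with no overlap of libraries. MA_10432342g0020 (NDR1/HIN1-like 3), from a family known in plant immunity, had 12.4, 17.6 and 17.1 CPM with IAA on day 10, against 0.222, 1.2 and 2.24 CPM in mock (log2 fold change 3.66 ± 0.84 (SE), adjusted P = 0.001). MA_10122875g0010 (Fe(II) ascorbate oxidase) had 7.27, 4.8 and 7.82 CPM on BAP day 15, against 0.682, 0.833 and 0.845 CPM on BAP day 5 (log2 fold change 3.04 ± 0.63 (SE), adjusted P = 0.0011). MA_10437233g0020 (aldehyde oxidase GLOX) had 11.7, 11 and 17 CPM on IAA day 15, against 0.557, 0.13 and 0.54 CPM on IAA day 5 (log2 fold change 5.09 ± 0.82 (SE), adjusted P = 1.8e-05), and was lower than mock on day 10 with BAP (log2 fold change -2.85 ± 0.74 (SE), adjusted P = 0.0041). With BAP+IAA its decrease against mock on that day (log2 fold change -1.69 ± 0.67 (SE), adjusted P = 0.042) did not pass without BAP+IAA day 10 replicate 1 or 3, Mock day 10 replicate 2 or 3 (log2 fold change -2.57 to -1.18 and adjusted P up to 0.22 over 6 fits that each left out 1 library).

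Phosphatases of type 2C are known as negative regulators in hormone and stress signalling, and 3 members were described as probable phosphatase 2C 25. On day 10 MA_177086g0010 had 0.148, 2.77 and 3.56 CPM with BAP+IAA, 0.148, 5.41 and 3.9 CPM with BAP and 0.384, 12.2 and 10.7 CPM with IAA, against 0.0739, 7.41 and 1.65 CPM in mock. MA_10426697g0020 had 5.11, 8.02 and 10.1, 3.26, 16.8 and 11.6 and 2.44, 17.5 and 18.4 CPM in the same treatments, against 0.517, 13.1 and 13.7 CPM in mock. In each of these groups replicate 1, given first, was the lowest. MA_10426697g0020 rose with IAA (log2 fold change 3.48 ± 0.95 (SE), adjusted P = 0.005) and so did its neighbour on the same scaffold, MA_10426697g0010 (log2 fold change 3.40 ± 0.95 (SE), adjusted P = 0.0059). As with the laccases, the treatment of reads with several alignments is not given, so the values of these neighbours may not be independent. Among all members, 10 lay on 5 scaffolds that held more than 1 member. MA_197097g0010 (EXORDIUM-like 2), from a family linked to brassinosteroid-promoted growth in Arabidopsis, was called in none of the 12 comparisons. It had 157, 249 and 304 CPM with IAA on day 10, against 46.3, 189.6 and 279 CPM in mock. Replicate 1 was the lowest library in all 4 day 10 groups for 37 of the 150 members, against 3.97% of all tested genes. What set the libraries numbered 1 apart was not tested.

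Lists of wall enzymes and graft factors were followed through the same time courses, as a background to the 2 laccases and the 1 graft transcription factor among the members. Of all tested genes, 5.37% rose and 3.1% fell with BAP+IAA, 8.09% and 2.42% with BAP, and 12.8% and 4.91% with IAA. Counts near these shares are not read as results about a list. Of 62 tested laccases, 4 rose and 28 fell with BAP+IAA, 8 rose and 21 fell with BAP, and 16 rose and 15 fell with IAA. Both laccases among the members rose in all 3, with log2 fold changes under BAP+IAA of 1.35 ± 0.42 for MA_97119g0020 and 1.51 ± 0.44 for MA_97119g0010 (SE, adjusted P = 0.022 and 0.014). The rise of MA_97119g0020 under BAP+IAA did not pass without BAP+IAA day 5 replicate 1 or 2, BAP+IAA day 15 replicate 1 (log2 fold change 0.93 to 1.55 and adjusted P up to 0.16 over 6 fits that each left out 1 library). That of MA_97119g0010 did not pass without BAP+IAA day 5 replicate 2, BAP+IAA day 15 replicate 1 (log2 fold change 1.28 to 1.65 and adjusted P up to 0.07 over 6 fits that each left out 1 library). Of 61 graft transcription factors, 19 rose and 1 fell with BAP+IAA, 17 rose and 1 fell with BAP, and 13 rose and 6 fell with IAA. Of 55 pectin methyl esterases, 5 rose and 3 fell with BAP+IAA, 3 rose and 4 fell with BAP, and 11 rose and 7 fell with IAA. Of 23 beta-1,4-glucanases, 7 rose and 2 fell with BAP+IAA, 4 rose and 1 fell with BAP, and 6 rose and 4 fell with IAA. Of 32 pectate and pectin lyases, 12 rose and 1 fell with BAP+IAA, 8 rose and 0 fell with BAP, and 7 rose and 9 fell with IAA. No pectin methyl esterase, beta-1,4-glucanase or lyase of these lists was a member, and the median mock ratio of the 58 laccases that reached 1 CPM in a group was 0.01.

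The levels beside mock on days 5 and 15 are given as a description, since those mock libraries chose the members. On day 15 all BAP+IAA libraries lay above all mock libraries for 20 members and below them for 76, where 29.5% and 24.6% of the genes reaching 1 CPM did. All BAP libraries lay above mock for 12 and below for 75 (27.2% and 18.6%), and all IAA libraries lay above mock for 43 and below for 48 (22.6% and 22.8%). On day 5 the BAP+IAA libraries lay above all mock libraries for 44 members and below for 43 (28.1% and 26.1%), those of BAP above for 7 and below for 34 (21.3% and 15.7%), and those of IAA above for 35 and below for 47 (27.9% and 28.6%). Without the mock libraries numbered 1 the members below mock on day 5 numbered 63 with BAP+IAA, 69 with BAP and 65 with IAA, and on day 15 they numbered 79, 79 and 56. IAA gave the highest group mean of day 15 for 73 members and mock for 59 (66 and 66 without mock replicate 1). BAP+IAA and BAP gave it for 9 each. Shares over all genes were not taken for these counts, and the choice on mock day 15 favours mock. They are therefore not read as a ranking of treatments. The median member had 3.57, 4.99 and 6.58 CPM on days 5, 10 and 15 with BAP+IAA, 1.97, 6.25 and 7.84 CPM with BAP, and 2.75, 9.84 and 17.6 CPM with IAA. Among these hormone treatments the median with BAP+IAA was the highest on day 5 and the lowest on days 10 and 15.

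Descriptions could be given to 33 members, from pairs of gene ID and text in tables of the study that list genes by their hormone or graft response, so that having a description is not independent of the calls, and 117 members had none. Each group held 3 libraries, and the p-values use a spread estimated over all 36 libraries with 24 residual degrees of freedom.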

How the data were processed

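RNA-seq libraries of 36 samples were analysed from the deposited table of raw counts per gene, which the authors made with fastp, STAR and HTSeq, as named in the submitters' processing notes. The treatment of reads with several alignments is not given in the sources used here. The authors' own lists of called genes were not used as results. Their gene descriptions and their named lists of wall enzymes and graft transcription factors were read. The graft transcription factor list was drawn by the authors from transcription factors that differed in expression during grafting. All 36 count columns were matched to a sample by name. CPM values were computed from each library's total, and total counts ranged from 13188942 to 23110495. Genes with no count numbered 17643, and filterByExpr kept 38732. A quasi-likelihood model with TMM scaling and 12 group means was fitted to all 36 libraries in edgeR 4.0.16 (R 4.3.3), with 24 residual degrees of freedom, and was tested on simulated data. A gene was called where the Benjamini-Hochberg adjusted P was under 0.05 and the log2 fold change exceeded 1 in size. Comparisons that use mock day 5 or day 15 were not tested, since those libraries chose the members. The same libraries did enter the estimate of the spread in the fit. Alternatives were RLE scaling, no filter, DESeq2 1.42.0, a replicate block and leaving out libraries.

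The members and gene lists were chosen with earlier results of these data known. Named genes were the 10 with the highest ratio, the members with a description other than unknown, hypothetical or uncharacterized or on a study list, the extreme called member of each comparison and direction, and the members next to the threshold. Empty groups were set to 3 counts in sum, and floors and intervals cover counting error only. The study describes the replicates as biologically independent pools of plants. Same-numbered libraries were taken as paired where the deviations of every pair from the group means correlated above 0.1. This held only for BAP+IAA against IAA on day 15 (0.147, 0.107 and 0.100), and the blocked fit there called 6 members higher and 78 lower. The main counts, gene values and figures come from the fit without that block, also for this comparison.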

Additional observations from a re-analysis of the deposited data

Results flagged for a closer look

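Differences between treatments in the change over time were themselves tested with edgeR's quasi-likelihood test, and those past the threshold are given here as values. The change with BAP differed from that with IAA upwards for 6 members and downwards for 30. The extreme genes were MA_10434729g0020, with a difference of 3.91 on the log2 scale, and MA_103506g0020, with -5.74. The last value is no bound, since MA_103506g0020 had 161 counts over the IAA day 15 libraries and none on IAA day 5, at least 54.6-fold higher on day 15 with the empty group set to 3 counts in sum. Its call (adjusted P = 0.05) was lost in 11 of 12 fits that each left out 1 IAA or BAP library of day 5 or 15, all but that without BAP day 5 replicate 1 (log2 -6.23 to -4.08, adjusted P up to 0.37). The change with BAP+IAA differed from that with IAA upwards for 1 member, MA_9739622g0010, with 1.45, and downwards for 49. The call of MA_9739622g0010 (adjusted P = 0.042) was lost in 9 of 12 such fits, all but those without IAA day 5 replicate 3, IAA day 15 replicate 2 and BAP+IAA day 15 replicate 1 (log2 1.10 to 1.72, adjusted P up to 0.15). The extreme of these was MA_10434427g0010, with -7.09. The change with BAP+IAA was smaller than that with BAP for 21 members, with MA_595151g0010 at the extreme with -5.51. The call of MA_595151g0010 (adjusted P = 0.031) was lost in 7 of 12 such fits, those without BAP day 5 replicates 1 and 2, BAP day 15 replicate 2, BAP+IAA day 5 replicates 2 and 3 and BAP+IAA day 15 replicates 2 and 3 (log2 -6.49 to -4.42, adjusted P up to 0.11). That of MA_10434427g0010 was lost without BAP+IAA day 5 replicate 3 (adjusted P up to 0.071).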

How the results depend on the processing

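Of 287 called values of named genes, 179 kept their call under every alternative, 108 lost it under at least 1 and 0 reversed. Leaving out all replicate 1 libraries, chosen after seeing the data, gave 0 members lower with IAA and 1 lower with BAP over time, 2 higher with BAP than with IAA on day 15, 6 higher and 19 lower with BAP+IAA than with BAP on day 15, and 0 with a larger change with BAP+IAA than with IAA. DESeq2 called 1 member lower over time with BAP, 2 with a larger change with BAP+IAA than with IAA and 1 with a larger change with BAP+IAA than with BAP. Without the filter, 0 had a larger change with BAP+IAA than with IAA. The cause was not tested.

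With the replicate block, 2 members had a larger change with BAP+IAA than with IAA, and over time 119 rose and 4 fell with IAA, 102 rose and 0 fell with BAP, and 43 rose and 15 fell with BAP+IAA. Apart from BAP+IAA against IAA on day 15, not every same-numbered pair of libraries reached a correlation of 0.1, although replicate 1 did so against mock on day 10 (0.256 with IAA, 0.249 with BAP and 0.205 with BAP+IAA).

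Leaving out 1 library at a time, members called higher and lower over time ranged from 29 to 38 and 14 to 16 with BAP+IAA, 58 to 90 and 0 to 1 with BAP, and 100 to 114 and 0 to 5 with IAA. Against mock on day 10 they ranged from 14 to 17 and 68 to 71 with BAP+IAA, 5 to 11 and 49 to 66 with BAP, and 21 to 29 and 21 to 32 with IAA. On day 15 they ranged from 4 to 5 and 68 to 76 for BAP+IAA against IAA, 1 to 2 and 50 to 59 for BAP against IAA, and 4 to 10 and 19 to 30 for BAP+IAA against BAP. For the changes they ranged from 0 to 1 and 41 to 48 for BAP+IAA against IAA, 5 to 9 and 22 to 33 for BAP against IAA, and 0 to 0 and 13 to 18 for BAP+IAA against BAP. Without 1 mock library of day 5 or day 15, 81 to 123 of the 150 members stayed on the list.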

Other observations

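Replicate 1 was the lowest of its group in all 12 groups for 4 members, MA_49467g0010, MA_10427544g0020, MA_5321101g0010 and MA_8920553g0010, against 0.227% of all tested genes. It was the lowest in all 4 groups of day 5 for 22 members, against 3.15% of all tested genes, and in all 4 groups of day 15 for 22 members, against 2.68%. The summed level of the 150 members on day 15 was 2497 to 3219 CPM with BAP+IAA, 2671 to 4067 CPM with BAP and 7588 to 9001 CPM with IAA, against 5736 to 7068 CPM in mock.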
